A study of Mus musculus with 22 samples.

Results

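The desmosome genes measured here were Dsg2, Dsg3, Dsc2, Dsc3, Dsp, Pkp1, Pkp3, Jup and Perp, 9 of the 17541 genes listed in every deposited count table, and they were taken by symbol rather than by any measured value. They were followed in single-cell RNA sequencing (scRNA-Seq, inDrop platform) of esophageal epithelium peeled from C57BL6 mice, with 22 libraries from 13 mice. Untreated controls comprised 6 mice in 12 libraries, of which 3 were young (3–4 months; mice 1, 2 and 6) and 3 were old (18–20 months; mice 3, 4 and 5). Eosinophilic esophagitis (EoE) had been modeled in 4 mice with 1 library each by the vitamin D analog MC903 on abraded ears together with the allergen ovalbumin (OVA) over 32 days, in young animals of 6–8 weeks (mice 9 and 10) and old animals of 19–20 months (mice 11 and 12). Esophageal squamous cell carcinoma (ESCC) had been induced in 3 mice (17F, 17M and 8M; 6 libraries) aged 8–10 months with the carcinogen 4-nitroquinoline 1-oxide (4NQO, 100 µg/ml in drinking water for 16 weeks, then 8 weeks of withdrawal). The controls were wild type per the study's methods, no engineered allele was named for any group, no control mouse matched the ESCC age, and the epithelium of ESCC mice was taken whole, so that tumor and non-tumor cells cannot be told apart.

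Desmosomes are the adhesive junctions that couple the keratin filaments of neighboring epithelial cells and are abundant in stratified squamous epithelium such as that of the esophagus. Desmogleins and desmocollins, the desmosomal cadherins, meet across the intercellular space, the armadillo proteins plakoglobin (Jup) and the plakophilins hold them in the plaque, and desmoplakin (Dsp) ties the plaque to keratin. Stratified epithelia change their desmosomal cadherins and plakophilins as cells leave the basal layer and move toward the surface.

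Promoters of the 2 plaque genes found in the RefSeq promoter table (2 of the 9 genes matched) are printed because Dsp and Jup form the plaque that every desmosomal cadherin shares, and they run from 250 bases before to 50 after the transcript start that the table uses. That start is base 38151294 for Dsp and base 100397790 for Jup, the latter 27 bases upstream of the GENCODE gene start. The Dsp window is chr13:38151044-38151343 (GRCm38.p6, plus strand, 73% G and C) and the Jup window is chr11:100397741-100398040 (minus strand, 60.7% G and C), each written 5′ to 3′ on the gene's strand. Capitals mark CCACCC, the letters searched for KLF factors, or GGGTGG, the same letters on the opposite strand.
Dsp: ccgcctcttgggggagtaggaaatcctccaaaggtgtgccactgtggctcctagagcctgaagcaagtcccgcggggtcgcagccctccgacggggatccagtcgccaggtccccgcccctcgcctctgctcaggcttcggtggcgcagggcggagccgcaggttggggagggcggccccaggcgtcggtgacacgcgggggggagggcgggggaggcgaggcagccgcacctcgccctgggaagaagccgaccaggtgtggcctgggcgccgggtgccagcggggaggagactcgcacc
Jup: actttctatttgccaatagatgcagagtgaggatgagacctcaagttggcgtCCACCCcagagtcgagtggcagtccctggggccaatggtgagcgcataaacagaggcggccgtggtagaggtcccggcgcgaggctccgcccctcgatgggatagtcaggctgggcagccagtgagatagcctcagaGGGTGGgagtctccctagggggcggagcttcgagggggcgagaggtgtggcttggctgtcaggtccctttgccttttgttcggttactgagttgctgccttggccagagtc
The Jup window held 2 such matches, starting 198 and 61 bases before that start, and the Dsp window held none. CCACCC was found on either strand in 31.5% of 32851 promoters of the same length. Neither window held TGANTCA, the AP-1 letters (7.81% of promoters), or AACNGGTT, the grainyhead-like letters (2.09%), and a match of this kind describes letters and not binding.

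Of the 4500 deposited cells, 3108 passed the limits on genes and unique molecular identifiers (UMIs) and were not called non-epithelial, namely 1493 control, 1472 ESCC and 143 EoE cells. Control mice supplied 111043–427752 UMIs each, ESCC mice 1240388–2103543 and EoE mice 6245–41909, and the median used cell held 990, 3109 and 519 UMIs respectively, so that EoE values were by far the least precise. The 9 desmosome genes together received 13815 UMIs in control, 25354 in ESCC and 770 in EoE. Both libraries of each control and ESCC mouse shared cell barcodes (239 in all, with a median correlation of 0.926 between copies), against at most 4 between libraries of different mice, so the mouse was the replicate throughout and every test was repeated without the shallower copies, which changed no desmosome gene's call. All 12 immune marker genes examined had UMIs among the used ESCC cells, at a summed 66.8–102 UMIs per 1000000 (CPM) per mouse against 0–29.5 CPM in control and 0 in EoE. Of 6 endothelial markers, only Pecam1 had UMIs in used EoE cells (12 in all, 71.6–278 CPM per mouse), the other 5 being at 0, and the list summed to 0–9.94 CPM in control and 2.88–7.26 in ESCC. Fibroblast markers summed to 64.6–369 CPM in control, 0–283 in EoE and 13.3–119 in ESCC, and the part of these markers in the results was not tested. The 31 cells called non-epithelial held 0–3 UMIs of each desmosome gene in 51931 UMIs.

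On mouse genome build GRCm38 (GENCODE M21 gene models) the 4 cadherin genes lie together on chromosome 18, with Dsc3 at chr18:19960930-20002351 and Dsc2 at chr18:20030633-20059554 on the minus strand, and Dsg3 at chr18:20510274-20547459 and Dsg2 at chr18:20558074-20604521 on the plus strand. The remaining genes are dispersed, with Dsp at chr13:38151294-38198577 (plus strand), Pkp1 at chr1:135871395-135919207 (minus), Pkp3 at chr7:141078218-141090510 (plus), Jup at chr11:100368958-100397763 (minus) and Perp at chr10:18845020-18857073 (plus). All values are counts over whole genes, so exons, introns and UTRs were not distinguished.

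To place the desmosome genes along differentiation, control cells were clustered without using them, and the 5 clusters were divided by their Krt5 and Krtdap levels into basal (Krt5 high), suprabasal (within 0.3 log10 units of equality) and cells above that strip (Krtdap high). Within the control epithelium, 7 of the 9 genes were higher above the strip than in basal cells in all 6 mice, Dsc3 in 5 of 6 and Dsg2 in none. These levels describe cells that were clustered on their own transcriptome and carry no test. Values by class are UMIs per 1000000 UMIs of that class (CPM), without further scaling.

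Dsc2, a desmocollin found in many epithelia, had the largest log2 ratio of above-strip to basal cells of the 9 once 10 CPM were added, from a mean of 67.8 CPM in basal cells through 420 in suprabasal cells to 1213 above the strip, a 17.9-fold difference of means and a log2 ratio of 4.04 ± 0.48 (SD over 6 mice). Dsg2, the most widely expressed desmoglein, ran the other way, with 89.5, 21.8 and 2.63 CPM (a log2 ratio of −3.04 ± 0.80). Only 3 Dsg2 UMIs lay above the strip against 70 in basal cells, a ratio of 22.7 whose exact 95% counting interval ran from 7.45 to 113. Among the desmosomal cadherins, Dsg3 and Dsc3 peaked in the suprabasal class, at 410 and 902 CPM, against 175 and 495 in basal cells and 342 and 685 above the strip.

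The plaque genes had shallower gradients than Dsc2. Dsp, the keratin linker, went from 1021 to 1947 to 3696 CPM (3.62-fold from basal to above, log2 ratio 1.85 ± 0.09). Pkp1, the plakophilin of differentiated layers, went from 553 to 1090 to 1926 CPM (3.49-fold), and Jup from 422 to 658 to 1229 CPM (2.91-fold). Perp, a tetraspan membrane protein needed for desmosome assembly, went from 924 to 1837 to 2733 CPM (2.96-fold), while Pkp3 had the shallowest gradient of the plaque genes, from 82.9 to 145 to 176 CPM (2.13-fold, log2 ratio 0.94 ± 0.39). The SDs of the log2 ratios lay between 0.09 and 0.19 for Dsp, Pkp1, Jup and Perp, and between 0.39 and 0.80 for Pkp3 and the cadherins.

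**Figure D1:**
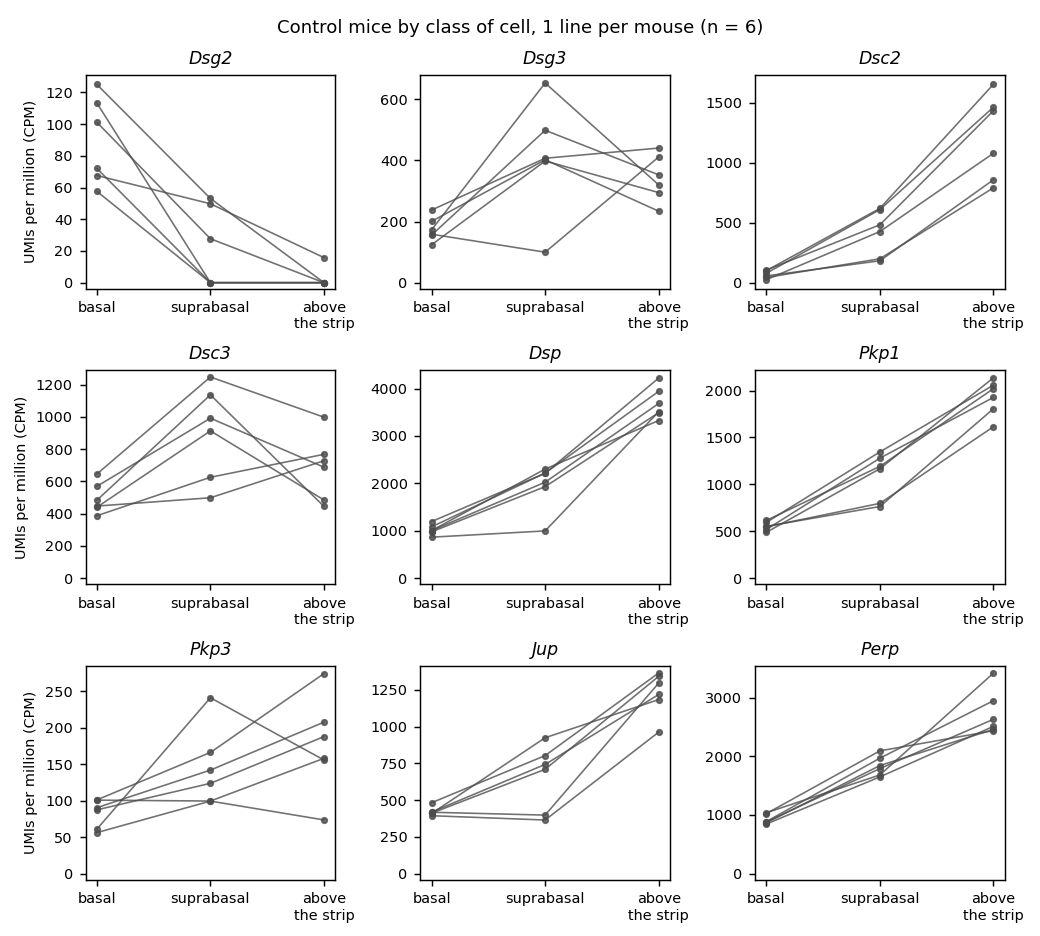
Level of each desmosome gene (CPM, linear axis, 1 panel per gene) in basal, suprabasal and above-strip cells, with 1 line for each of the 6 control mice. From basal to above-strip cells the mean of Dsc2 went from 67.8 to 1213 CPM, that of Dsp from 1021 to 3696 and that of Dsg2 from 89.5 to 2.63.

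The question of whether carcinoma altered the desmosome genes was addressed first over all used cells of each mouse, in CPM scaled by the trimmed mean of M values (TMM). In ESCC mice, Dsc2 and Dsg2 fell and Pkp3 rose relative to control, and the other 6 genes did not pass the test. At an adjusted p under 0.05, 1 desmosome gene was higher (17.8% of all tested genes were) and 2 were lower (16.8% of all genes), with 5 of the 9 under an unadjusted p of 0.05 (43.5% of all genes were). The median log2 fold change was −0.47 over the 9 genes and 0.01 over all 5866 tested genes (0.12 with relative log expression, RLE, scaling), and 7 of the 9 lay below the latter. Summed over the 9 genes, ESCC mice held 5849–6657 TMM CPM, control mice 6479–9957 and EoE mice 4378–9512, so that the ranges overlapped. In sums over mixed cells, fewer cells of a type and less RNA per cell cannot be told apart, and basal cells made up 65.9–74.5% of used ESCC cells against 42.5–68.6% in control, while cells above the strip made up 12.997–18.75% against 20–41.4%.

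Dsc2 stood at 280, 392 and 245 TMM CPM in ESCC mice 17F, 17M and 8M, against 298 to 954 in control (median 598). The ESCC values were low but overlapped the lowest control mouse, and the fall of Dsc2 was 1.08 on the log2 scale (SE 0.27, adjusted p = 0.00214, edgeR). Dsg2 stood at 28.0, 22.98 and 22.7 TMM CPM in the same mice, against 27.3 to 67.1 in control (median 48.8). Again a single control mouse, mouse 5, reached the ESCC range, and Dsg2 fell by 1.01 on the log2 scale (SE 0.29, adjusted p = 0.00647). Both calls held when any 1 mouse was left out and when the shallower copies of shared barcodes were dropped, at −1.11 for Dsc2 (adjusted p = 0.00263) and −1.08 for Dsg2 (adjusted p = 0.00364).

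Pkp3, a plakophilin able to bind most desmosomal cadherins, stood at 247, 237 and 211 TMM CPM in ESCC mice 17F, 17M and 8M, against 79.4 to 209 in control (median 139). On this scale every ESCC mouse lay above every control mouse, as 13.7% of all tested genes did. Without TMM scaling, ESCC mice 17M (191.6 CPM) and 8M (165 CPM) lay below control mouse 6 (192.1 CPM). Pkp3 rose by 0.71 on the log2 scale (SE 0.22, adjusted p = 0.0128). The call was lost without ESCC mouse 17F (0.65, adjusted p = 0.0757) or without control mouse 4 (0.54, adjusted p = 0.0662), and it held without the shallower copies (0.66, adjusted p = 0.0176).

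Perp was the converse, with 1173, 1323 and 1470 TMM CPM in ESCC mice 17F, 17M and 8M, all below the control range of 1544 to 2385, as in 11.4% of tested genes. Its log2 fold change of −0.56 (SE 0.22) missed the threshold at an adjusted p of 0.0522. It passed without control mouse 2 (−0.62, adjusted p = 0.0406) or 3 (−0.60, adjusted p = 0.0360), with DESeq2 (−0.45, adjusted p = 0.0158), in a fit of only the 2 groups (−0.58, adjusted p = 0.0184) and over all deposited cells (−0.59, adjusted p = 0.0371).

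Dsp gave 1596, 1935 and 1635 TMM CPM in ESCC against 1796 to 2930 in control (−0.50, SE 0.26, adjusted p = 0.132), and Pkp1 gave 929, 1065 and 795 against 962 to 1476 (−0.47, SE 0.22, adjusted p = 0.0967). Pkp1 passed without control mouse 3 (−0.54, adjusted p = 0.0484), and both passed in a fit of only the 2 groups (−0.52, adjusted p = 0.0408 for Dsp and −0.50, adjusted p = 0.0399 for Pkp1). Jup, which plaques share with adherens junctions, gave 645 to 731 TMM CPM against 728 to 1027 (−0.29, adjusted p = 0.275), Dsc3 gave 552 to 594 against 585 to 873 (−0.22, adjusted p = 0.435) and Dsg3 gave 232 to 374 against 248 to 380 (0.09, adjusted p = 0.748). For these 5 genes the 2 groups overlapped.

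**Figure D2:**
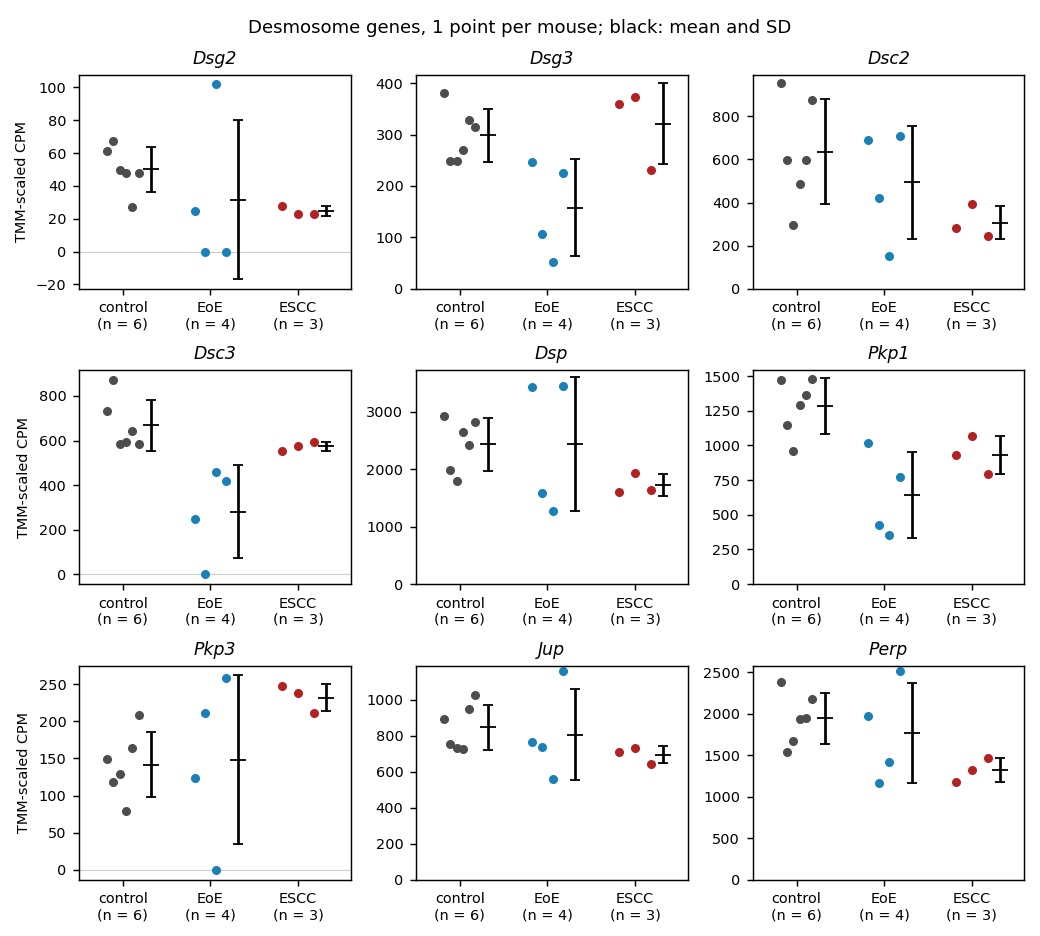
TMM-scaled CPM (linear axis) of each desmosome gene in every mouse, with control, EoE and ESCC mice side by side, where points are mice and black marks are the group mean and SD. On this scale Pkp3 in ESCC (211–247) sat above every control mouse and Perp in ESCC (1173–1470) below every control mouse, while EoE points were widely scattered. Without TMM scaling, Pkp3 of ESCC and control mice overlapped.

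Cell class was then held fixed by summing each mouse within the basal, suprabasal and above-strip classes, to which ESCC and EoE cells had been assigned by their 15 nearest control cells of other mice. In basal cells, Dsg2 fell and Pkp3 rose in ESCC, 1 gene each way among the 9 tested (15.5% of 3659 genes were lower and 16% higher). Basal Dsg2 was 31.1, 26.1 and 23.3 CPM in mice 17F, 17M and 8M, all below the 57.6–125 CPM of the 6 controls, with a log2 fold change of −1.52 (SE 0.29, adjusted p = 0.000323). Basal Pkp3 was 163, 150 and 155 CPM in the same mice, all above the 56.3–101 CPM of controls, with a log2 fold change of 1.16 (SE 0.21, adjusted p = 0.000172). Both calls held without any 1 mouse and without the shallower copies of shared barcodes (−1.57 and 1.05). The share of all basal-class genes with no overlap between ESCC and control mice was not counted. Over all used cells, 13.7% of tested genes had every ESCC mouse above every control mouse and 11.4% below.

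Dsc2, lower over all cells, did not pass as lower in this class. Its basal level was 80.3, 130 and 59.6 CPM in ESCC mice 17F, 17M and 8M against 24.7–105 in control (log2 fold change 0.60, SE 0.30, adjusted p = 0.138). Without mouse 8M, Dsc2 (0.80, adjusted p = 0.0197) and Dsg3 (0.60, adjusted p = 0.0171) both passed as higher. The other 5 genes had log2 fold changes from −0.19 (Perp) to 0.12 (Dsp), and none passed.

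Above the strip, 8 of the 9 genes had enough counts to be tested, and 1 was higher (Pkp3) and none lower in ESCC, where 16.3% of 3316 genes were higher and 12.6% lower. Pkp3 gave 356, 363 and 223 CPM in mice 17F, 17M and 8M against 73.7–274 in control (log2 fold change 1.04, SE 0.28, adjusted p = 0.00471). Mouse 8M lay inside the control range. Dsc2 there gave 673, 998 and 576 CPM against 791–1654 (−0.48, SE 0.29, adjusted p = 0.221). Dsg3, the pemphigus vulgaris antigen, missed the threshold at 0.48 (SE 0.22, adjusted p = 0.103), and passed under RLE scaling (0.56, adjusted p = 0.0495) or without mouse 8M (0.75, adjusted p = 0.00627).

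In suprabasal cells, which 5 control and 3 ESCC mice supplied in sufficient number, 7 of the 9 genes were tested and 0 passed in edgeR or DESeq2 (30.4% of 1343 genes did in edgeR). The single gene under an unadjusted p of 0.05, as 40.6% of all genes were, was Dsc3 (−0.53, SE 0.23, adjusted p = 0.0845), and it passed without mouse 8M (−0.57, adjusted p = 0.0292) or without control mouse 5 (−0.67, adjusted p = 0.0334). The class labels do not make the cells equal between groups, as above-strip ESCC cells held mean Krt5 and Krt14 levels of 5724 and 8657 CPM against 970 and 223 in control. The part of that difference in the desmosome results was not tested.

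**Figure D3:**
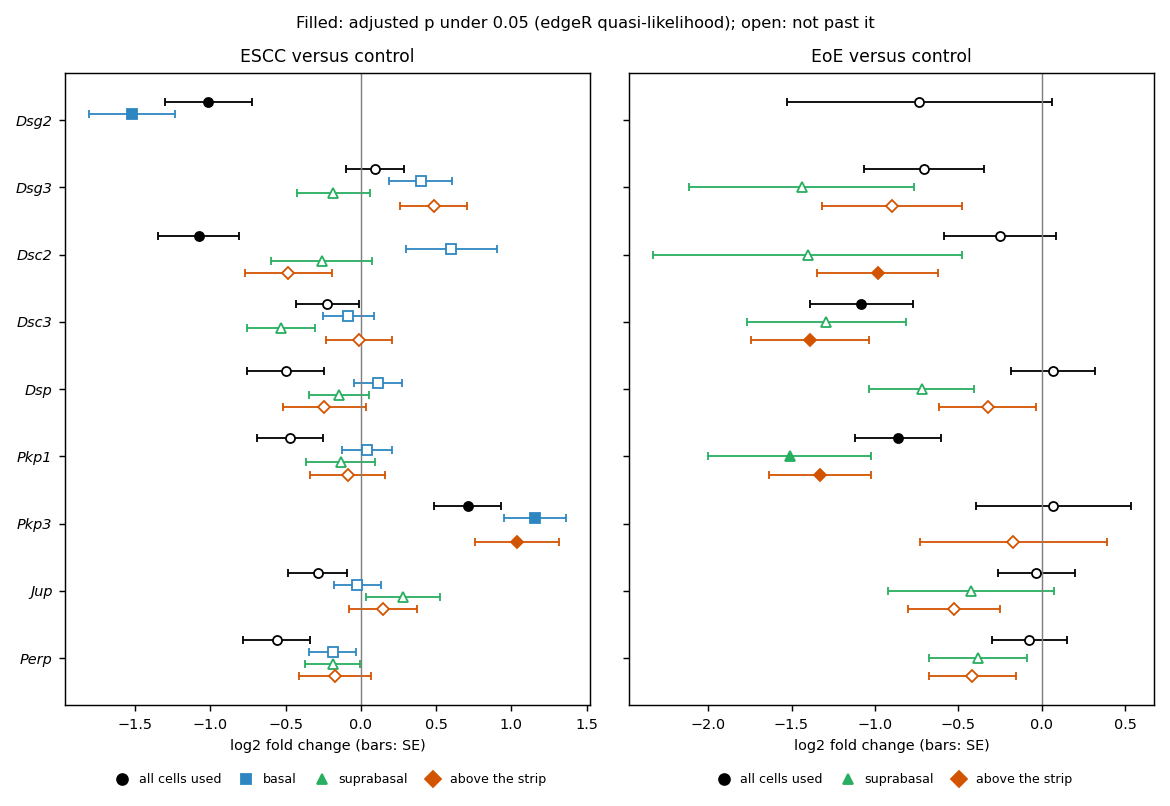
Log2 fold change of each desmosome gene against control for ESCC and EoE, over all cells and within each cell class, where points are edgeR estimates, bars are 1 SE, and filled points passed an adjusted p of 0.05. Pkp3 was higher in ESCC over all cells (0.71), in basal cells (1.16) and above the strip (1.04), while the Dsc2 estimate was −1.08 over all cells and 0.60 in basal cells.

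In EoE, Dsc3 and Pkp1 fell and no desmosome gene rose over all used cells. The counts were 0 of 9 higher (9.48% of all tested genes) and 2 of 9 lower (25% of all genes), with 2 under an unadjusted p of 0.05 (44.5% of all genes) and, in DESeq2, 0 higher (8.13% of all genes) and 3 lower (23.6%). The median log2 fold change was −0.25 over the 9 genes and −0.75 over all tested genes (−0.97 with RLE scaling and −0.31 over all deposited cells). Relative to that shift, 7 of the 9 genes lay above the median gene under TMM and RLE scaling, and 2 of 9 over all deposited cells. Cells above the strip made up 51.2–81.8% of used EoE cells and basal cells 9.09–24.6%, and the part of these shares, or of the Pecam1 UMIs, in the results was not tested.

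Dsc3, the desmocollin found from the basal layer upward, gave 247, 0, 458 and 419 TMM CPM in EoE mice 10, 11, 12 and 9, against 585 to 873 in control (median 620). All 4 EoE mice lay below all 6 controls, as in 29.4% of tested genes, and no desmosome gene had all EoE mice above all controls (5.37% of tested genes). The Dsc3 values rest on 10, 0, 9 and 13 UMIs in the same order. The 0 UMIs in the 6245 of mouse 11 allow up to 480 CPM without TMM scaling, so this limit is not on the scale of the values above. Dsc3 fell by 1.08 on the log2 scale (SE 0.31, adjusted p = 0.00759), and the call was lost without mouse 10 (−0.91, adjusted p = 0.0683).

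Pkp1 gave 1014, 423, 356 and 774 TMM CPM in mice 10, 11, 12 and 9, against 962 to 1476 in control (median 1325). Only mouse 10 reached the control range. Pkp1 fell by 0.86 on the log2 scale (SE 0.26, adjusted p = 0.0112), and the call was lost without mouse 12 (−0.69, adjusted p = 0.0780), while the estimate was −1.43 over all deposited cells.

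Dsg3 gave 247, 106, 50.9 and 226 TMM CPM in mice 10, 11, 12 and 9, all below the control range of 248 to 380, but on 10, 1, 1 and 7 UMIs, and over all deposited cells EoE (91.4–257) overlapped control (220–353). Its log2 fold change of −0.71 (SE 0.36, adjusted p = 0.125) did not pass, and it passed over all deposited cells (−0.65, adjusted p = 0.0411), with RLE scaling (−0.94), in DESeq2 (−0.94) and with no filter on low counts (−1.04). Dsc2 gave 692, 423, 153 and 709 TMM CPM in the same order, inside or below the control range of 298 to 954 (−0.25, adjusted p = 0.581), and passed over all deposited cells (−0.72, adjusted p = 0.0494).

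Dsp, Perp and Jup, the 3 genes with the most EoE UMIs, had estimates near 0. Dsp gave 3436, 1586, 1273 and 3450 TMM CPM in mice 10, 11, 12 and 9, against 1796 to 2930 in control (0.07, SE 0.25, adjusted p = 0.850). On this scale the young EoE mice lay above and the old ones below every control. Without TMM scaling, mouse 11 (2402 CPM, on 15 UMIs) lay inside the control range of 1630 to 2737. Over all deposited cells, young mice 10 and 9 (2484 and 2157 TMM CPM) lay inside the control range of 1595 to 2718. Perp gave 1163 to 2515 TMM CPM (−0.08, SE 0.23) and Jup 560 to 1161 (−0.03, SE 0.23). The signs of the Dsp, Perp and Jup estimates changed with the scaling, the cells used or the groups in the fit.

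Dsg2 and Pkp3 could not be followed at this depth. Dsg2 had 1, 0, 2 and 0 UMIs in EoE mice 10, 11, 12 and 9, and the ratio of control to EoE over all UMIs was 1.498 with an exact 95% counting interval of 0.494–7.42. Pkp3 had 5, 2, 0 and 8 UMIs and a log2 fold change of 0.07 with an SE of 0.46.

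Within the above-strip class, which 3 EoE mice supplied in sufficient number, Dsc2, Dsc3 and Pkp1 were lower, 3 of the 8 genes tested (20.7% of genes were lower). Pkp1 gave 1135, 404 and 860 CPM in mice 10, 12 and 9 against 1614 to 2136 in the 6 controls (log2 fold change −1.33, SE 0.31, adjusted p = 0.00139). Dsc3 gave 221, 324 and 344 CPM in the same mice against 444 to 998 (−1.39, SE 0.35, adjusted p = 0.00348). Neither gene's EoE mice overlapped with control. The share of all genes in this class with such a separation was not counted. Over all used cells, 29.4% of tested genes had every EoE mouse below every control mouse. Dsc2 gave 851, 162 and 860 CPM in mice 10, 12 and 9 against 791 to 1654 in control (−0.98, SE 0.36, adjusted p = 0.0384). For Dsc2 only mouse 12, on 2 UMIs, lay below the control range, and the EoE class fits were not repeated with mice left out. The median was −0.71 over the 8 genes against −0.49 over all genes in this class.

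In suprabasal cells of 2 EoE mice, Pkp1 was lower, 1 of the 7 genes tested (17.2% of 1343 genes were lower, 7.22% higher and 24.4% either), with 600.5 and 558 CPM in mice 10 and 9 against 763 to 1345 in control (−1.51, SE 0.49, adjusted p = 0.0324), on 3 and 4 UMIs. DESeq2 called none of them. The basal class was not tested because 1 EoE mouse alone had 10 or more basal cells.

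A direct comparison of EoE with ESCC, which rests on the same 5866 genes and adds no new mice, separated only Dsc3. The median log2 fold change was −0.81 over all tested genes and 0.26 over the 9. Of the 9, 8 lay above the median gene under TMM and RLE scaling, and 5 over all deposited cells. Dsc3 lay close to the median gene, 0.05 below it under TMM scaling. Dsc3 was lower in EoE by 0.86 on the log2 scale (SE 0.33, adjusted p = 0.0357), 1 of 9 genes lower (29.9% of all genes) and 0 higher (11.7%, or 41.6% in either direction), and the call was lost without EoE mouse 10 (−0.68, adjusted p = 0.169) or 11 (−0.68, adjusted p = 0.0682). Next came Dsc2, at 0.83 higher in EoE (SE 0.37, adjusted p = 0.0736), and Dsg3, at −0.80 (SE 0.37, adjusted p = 0.0784). Dsc2 passed without EoE mouse 12 (1.09, adjusted p = 0.0301), and Dsg3 without ESCC mouse 8M (−1.07, adjusted p = 0.0189) and under RLE scaling (−1.14, adjusted p = 0.00855). Over all deposited cells Dsg2 (1.4999) and Jup (0.57) passed as higher in EoE, and Dsg3 (−0.71), Dsc3, Pkp1 (−0.93) and Pkp3 (−1.04) as lower. The comparisons of EoE and ESCC with control share the same 6 control mice, and in them Pkp3 had log2 fold changes of 0.07 and 0.71, Pkp1 −0.86 and −0.47 and Dsc2 −0.25 and −1.08, respectively.

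Age was compared among the control mice. None of the 9 genes passed between 3 old and 3 young mice in edgeR or DESeq2, where 0.0971% of 5149 genes passed, 0.0777% higher and 0.0194% lower. Under an unadjusted p of 0.05 (5.03% of all genes) there was 1 of the 9, Dsc2, with 954, 599 and 877 TMM CPM in young mice 1, 2 and 6 and 298, 487 and 597 in old mice 3, 4 and 5 (−0.79, SE 0.25, adjusted p = 0.771). Whether the EoE difference itself depended on age was tested as an interaction over the 10 control and EoE mice, and again 0 of 9 genes passed in edgeR or DESeq2 (0.0476% of 4198 genes passed). Dsp (−1.39, SE 0.51, adjusted p = 0.4995) and Pkp1 (−1.32, SE 0.60, adjusted p = 0.596) were under an unadjusted p of 0.05 (7.86% of all genes), each with the lower estimate in old mice.

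Depth differs between groups, so the share of cells with any UMI of a gene was also compared after thinning each cell to 500 UMIs, which left out 35 control and 69 EoE cells and no ESCC cell. Dsp was then seen in 43.4–48.5% of ESCC cells per mouse, against 42.9–66.1% in control and 60–100% in EoE, and in 0 of the 29 non-epithelial cells deep enough to thin, which allows a share of up to 10.3%. Unthinned, the Dsp shares were 92.2–92.8%, 64.3–83.0% and 73.3–100%, which places ESCC above control where the thinned shares do not. Dsg2 was seen in 0.625–1.00% of thinned ESCC cells and 1.09–3.16% of thinned control cells, against 5.35–7.43% and 3.12–7.14% unthinned. For both genes the CPM order of ESCC and control matched the thinned and not the unthinned order, so shares of cells were not used further.

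To describe which family member was used, the share of UMIs within each pair was computed per mouse and compared with exact two-sided permutation tests over mice, 6 comparisons in all. Pkp1 made up 90.1% ± 2.37 (SD, n = 6) of Pkp1 plus Pkp3 UMIs in control and 79.9% ± 1.59 (n = 3) in ESCC, with 79.0, 81.8 and 79.0% in mice 17F, 17M and 8M and at least 87.6% in every control mouse. The difference of −10.2 percentage points had an exact permutation p of 0.0238, the smallest that 6 against 3 mice can give, and an adjusted value of 0.0952. Control mice lay wholly above ESCC mice.

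Dsg3 made up 85.4% ± 4.47 of Dsg3 plus Dsg2 UMIs in control and 92.7% ± 1.56 in ESCC (exact permutation p = 0.0476, adjusted 0.0952). Dsc3 made up 52.7% ± 9.81 of Dsc3 plus Dsc2 UMIs in control and 65.5% ± 5.69 in ESCC (exact permutation p = 0.0476, adjusted 0.0952). The ESCC ranges of 91.1–94.2% and 59.5–70.8% overlapped the control ranges of 78.7–92.3% and 40.0–66.3%. None of the 6 comparisons passed after adjustment. With 6 against 3 mice, no ESCC comparison could pass the adjustment over 6 comparisons by itself, even with complete separation. In EoE the pairs had only 22 (Dsg), 89 (Dsc) and 91 (Pkp) UMIs over all mice, with differences of −4.32, −18.0 and −7.41 points. Leaving out 1 mouse moved these EoE differences, to 11.6, −31.5 and −13.2 points without mouse 12, and the Dsc and Pkp differences were −6.50 and −2.07 points without mouse 11.

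These shares also differed by cell class in control. Dsc3 held 88.5% of the desmocollin pair in basal cells and 36.5% above the strip, and Dsg3 held 66.4% of the desmoglein pair in basal cells and 99.2% above it. In basal ESCC cells the Dsg3 share was 87.7% and the Pkp1 share 75.5%, against 66.4% and 87.0% in basal control cells. Above the strip the Pkp1 share was 83.3% in ESCC and 91.7% in control. These class values are descriptions with no test.

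**Figure D4:**
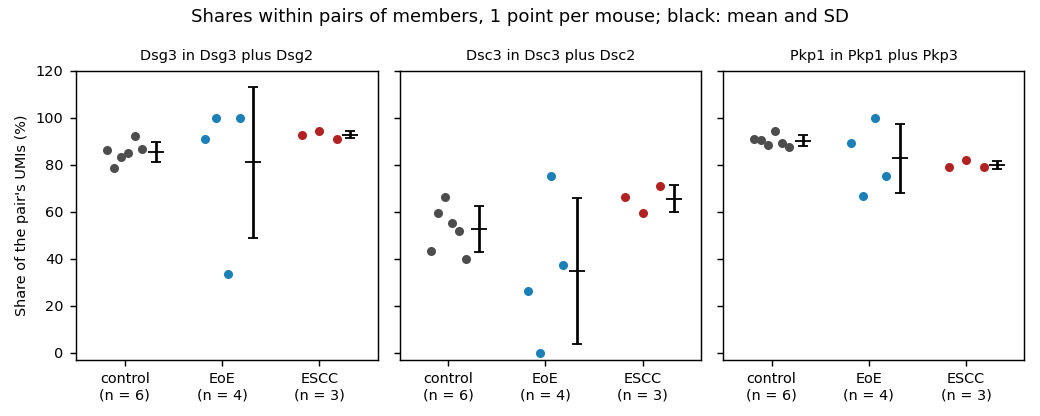
Share of UMIs (percent) taken by Dsg3 in Dsg3 plus Dsg2, Dsc3 in Dsc3 plus Dsc2 and Pkp1 in Pkp1 plus Pkp3 in each mouse of the 3 groups, where points are mice and black marks are the group mean and SD. All 3 ESCC mice (79.0–81.8%) lay below all 6 control mice (87.6–94.2%) for Pkp1, and EoE mouse 12 stood at 33.3% for Dsg3 on 3 UMIs.

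Other desmosome and plakin genes of a fixed list of 10 had larger estimates than most of the 9 genes above. In ESCC, the median log2 fold change was −2.26 over the 6 tested and 0.01 over all tested genes. Of the 6, 0 were higher (17.8% of all tested genes were) and 5 lower (16.8%). These were Dsc1 (−3.10, SE 0.51), a desmocollin of upper layers, Dsg1a (−2.83, SE 0.36), periplakin Ppl (−2.61, SE 0.37), envoplakin Evpl (−1.92, SE 0.25) and Dsg1b (−1.01, SE 0.26), with adjusted p from 2.80e-07 to 0.00306. In EoE, 4 of the same 6 were higher (9.48% of all tested genes were) and 0 lower (25%). The median was 1.84 over the 6 and −0.75 over all tested genes. The higher genes were Dsc1 (2.55, SE 0.53, adjusted p = 0.000466), Dsg1b (2.26, SE 0.36, adjusted p = 1.31e-05), Ppl (1.88, SE 0.32, adjusted p = 3.27e-05) and Dsg1a (1.79, SE 0.46, adjusted p = 0.00365). Dsg1a and Dsg1b are near-identical copies whose reads may have been split or lost in counting, so their separate values are uncertain.

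Ppl, a cornified envelope plakin, gave 65.9, 60.1 and 196 TMM CPM in ESCC mice 17F, 17M and 8M and 278 to 1010 in control. In EoE mice 10, 11, 12 and 9 it gave 3016, 1480, 1782 and 2773. The 3 groups did not overlap among used cells, but over all deposited cells EoE (651–1937) overlapped control (247–939). Among used cells, 5.37% of tested genes had every EoE mouse above every control mouse. Every ESCC mouse lay below every control mouse in 11.4%. Over all deposited cells the EoE estimates were smaller, at 1.37 for Dsc1, 1.49 for Dsg1b and 0.9994 for Ppl, and these 3 still passed. In EoE the Dsg1a call was lost without mouse 10 (1.59, adjusted p = 0.0682) or 9 (1.38, adjusted p = 0.0805) and over all deposited cells (0.79, adjusted p = 0.172), and the Dsc1 call without mouse 10 (2.05, adjusted p = 0.0540).

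Within ESCC cell classes, Ppl and Evpl were lower in basal (−1.94 and −0.99), suprabasal (−2.28 and −1.57) and above-strip cells (−1.88 and −1.37). Dsc1 (−2.03) and Dsg1a (−1.82) were lower above the strip, where Dsg1b had −0.03 and did not pass. In above-strip EoE cells, Dsc1 (1.89), Dsg1b (1.46) and Ppl (1.38) were higher, and Dsg1a did not pass (1.08, adjusted p = 0.0559). Compared directly, 5 of the 6 were higher in EoE than in ESCC (11.7% of all tested genes were) and Pkp4 lower (29.9%). The Pkp4 call was lost without any 1 EoE mouse (estimates from −1.86 to −1.43). Dsg1c, Dsg4, Pkp2 and Cdsn had too few counts to test.

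**Figure D5:**
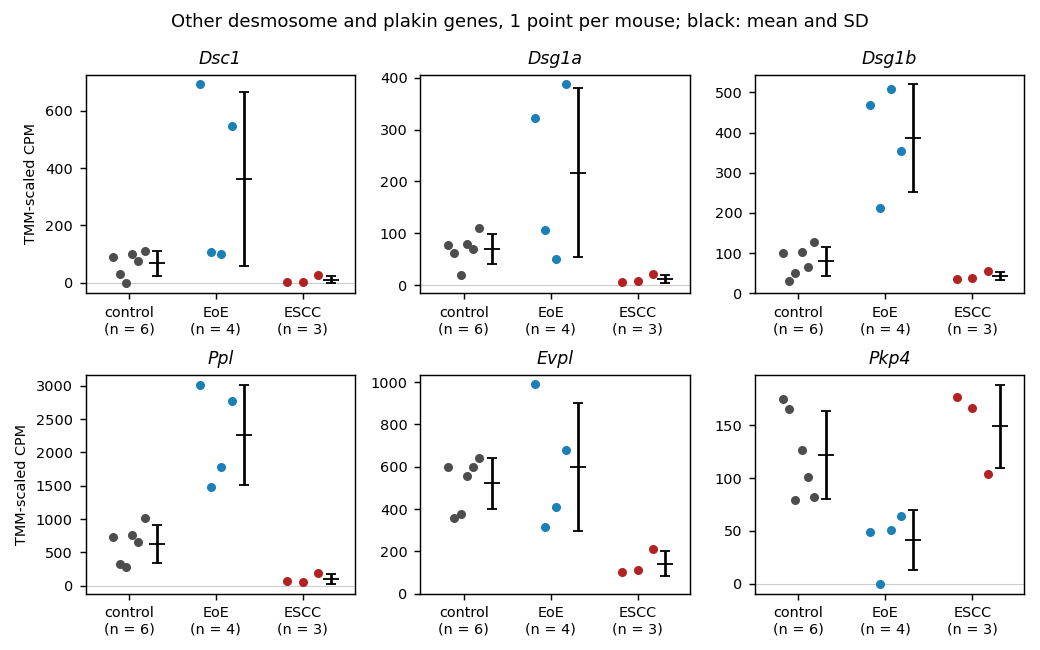
TMM-scaled CPM (linear axis) per mouse of the tested desmosome and plakin genes outside the 9, in control, EoE and ESCC mice, where points are mice and black marks are the group mean and SD. Ppl ran from 60.1–196 in ESCC through 278–1010 in control to 1480–3016 in EoE with no overlap among these used cells. Of all tested genes, 5.37% had every EoE mouse above every control mouse and 11.4% every ESCC mouse below.

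Adherens junction genes, the neighboring cadherin junctions that share Jup with the desmosome, were given by a list of 13 of which 10 were tested. In ESCC 2 of the 10 were higher (17.8% of all tested genes were) and 4 lower (16.8%). The higher were the actin crosslinker Actn1 (2.40, SE 0.25) and P-cadherin Cdh3 (0.84, SE 0.23). The lower were β-catenin Ctnnb1 (−2.24), Nectin4 (−1.23), p120-catenin Ctnnd1 (−1.06) and afadin Afdn (−0.95). In EoE 1 of the 10 was higher (9.48% of all tested genes were) and 2 lower (25%). E-cadherin Cdh1 was higher (1.36, SE 0.36), and Ctnnd1 (−2.57, SE 0.42) and Ctnnb1 (−2.44, SE 0.36) were lower. The Cdh3 call was lost without ESCC mouse 17M (0.63, adjusted p = 0.0905) and the Cdh1 call without EoE mouse 9 (0.64, adjusted p = 0.301).

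The 6 stage markers, among them keratins that desmosomes anchor, also differed between the groups. In ESCC the basal keratins Krt5 (1.06) and Krt14 (2.10) were higher and Krt4 (−2.999), Krt13 (−1.28) and Krtdap (−1.08) lower on the log2 scale, while Trp63 had −0.09 and did not pass. The Krt13 call was lost without ESCC mouse 17F (−1.06, adjusted p = 0.111) or 17M (−1.04, adjusted p = 0.103), and the Krtdap call without 17F (−0.92, adjusted p = 0.103). In EoE Krt5 (−3.60), Krt14 (−4.39) and Trp63 (−3.04) were lower and Krt4 (1.62) higher, while Krt13 (0.53) and Krtdap (0.07) did not pass. Their part in the desmosome results was not tested beyond the class comparisons given above.

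The 5 genes whose log2 CPM over the 13 mice was most like the mean of the 9 desmosome genes, among 5584 candidates, were Ap3s1 (Pearson r = 0.971), Tbc1d14 (0.969), Spast (0.967), Zdhhc5 (0.966) and Ctnnd1 (0.964). Over the 6 control mice alone the same r values were 0.811, 0.639, 0.8003, 0.728 and 0.855. All 13 points share their libraries, and depth and cell class shares differ with condition, so these r values describe likeness only.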

How the data were processed

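Droplet scRNA-Seq (inDrop) was available for 22 libraries of 13 mice. The deposited values are UMI counts per gene and cell, made by the authors with UMI-tools 1.0.0, STAR 2.7.3 and featureCounts on GRCm38, without normalization. The study's methods state the limits on cells used here and a draw of 1500 cells per condition. The deposited tables hold 1500 cells per condition, of which 1500 control, 1494 ESCC and 145 EoE cells lie within those limits. Counting by strand was not given in the sources used here. The authors' superficial populations were rebuilt rather than taken from a deposited annotation, so classes can differ from theirs.

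Cells with 250–3500 genes and 100–9500 UMIs were kept, and 31 cells with non-epithelial markers (at least 3 UMIs) were dropped, leaving 3108 of 4500. No doublet caller was run. Control cells were normalized to 10000, and 2000 variable genes (the desmosome genes left out) and 50 components gave Leiden clusters at resolution 1 (scanpy 1.11.5, igraph 0.11.9), divided by a strip of 0.3 as in the study. A cell's class was the majority class among the 15 control cells closest to it, its own mouse left out (scikit-learn 1.9.0).

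Counts were summed per mouse, or per mouse and class with at least 10 cells, and tested with edgeR 4.0.16 quasi-likelihood (TMM, filterByExpr, R 4.3.3) over all 13 mice in 1 fit of 3 groups, with Benjamini-Hochberg adjustment over all tested genes at 0.05. Each adjusted p comes from this test unless DESeq2 1.42.0 is named. Age was tested within control, and as an interaction over control and EoE. Pair shares were compared with exact two-sided permutation tests (scipy 1.17.1). The fit over all genes was tested on simulated data. Alternatives were RLE scaling, DESeq2, no filter, all deposited cells, non-epithelial cells kept, other clustering settings, only the 2 groups compared, no ribosomal or mitochondrial genes, and each mouse left out. Dropping the shallower copy of shared barcodes was added after seeing the data.

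The text names all 9 desmosome genes, genes of fixed desmosome and adherens junction lists past the threshold in EoE or ESCC, 6 stage markers, and the 5 genes most like the desmosome mean. The members and lists were chosen with earlier results of these data known. Over a whole group, a count of 0 allows up to 3 UMIs, or 1.72 CPM in control, 30.6 in EoE and 0.590 in ESCC, and such floors and intervals cover counting error only. Sources do not say whether mice were caged or processed together, and p-values measure the spread between these mice.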

Additional observations from a re-analysis of the deposited data

Results flagged for a closer look

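Among the 24 sets of 4 to 6 mice examined for a value far from its group, where chance gives about 1 in 20, a single one stood apart. The share of Dsg3 in Dsg3 plus Dsg2 was 33.3% in EoE mouse 12 against 90.9–100% in the other 3 EoE mice, and it rested on 1 Dsg3 and 2 Dsg2 UMIs.

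In TMM CPM of used cells, the EoE difference in Dsp had opposite signs by age. The mean of the young EoE mice was 867 TMM CPM above that of young controls, and the mean of the old EoE mice was below that of old controls (a difference of −857 TMM CPM). Over all deposited cells, young EoE mice 10 and 9 (2484 and 2157 TMM CPM) lay inside the young control range of 1787 to 2718. Without TMM scaling of used cells, old EoE mouse 11 (2402 CPM) lay above and mouse 12 (1392) below the old control range of 1630 to 2338. The opposite direction of all mice was not tested as such, and the interaction of EoE and age for Dsp did not pass (−1.39, SE 0.51, adjusted p = 0.4995, edgeR).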

How the results depend on the processing

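No paired analysis was possible because the groups share no mouse or replicate number in the labels. Without leaving mice out, 143 of the alternative values for a comparison kept within 1.5 times of the reported count or kept their call, and 12 did not; among single genes 593 kept their side of the threshold, 21 gained it, 8 lost it and 25 changed sign. The cause was not tested for any of these. Over all deposited cells, 4 desmosome genes were lower in EoE than in control, as were 1751 of 5971 tested genes. Against ESCC, 4 were lower and 2 higher in EoE over these cells (1963 and 1412 of 5971 genes). Over them 1 gene in all passed the interaction of EoE and age (0 with DESeq2, 1 without the shallower copies of shared barcodes). In a fit of only the 2 groups, 5 desmosome genes were lower in ESCC (1093 of 6482 genes were). Lower in EoE than in ESCC were 3 with RLE scaling (2325 of 5866 genes), 3 with DESeq2 (1901 of 5866) and 2 with no filter (2379 of 15110). DESeq2 called 0 in suprabasal EoE cells (220 of 1343 genes), and RLE scaling called 2 higher in above-strip ESCC cells (606 of 3316).

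Signs changed only for uncalled genes. For EoE against control these were Dsg2 over all deposited cells (0.45), Dsp (all deposited −0.40, RLE −0.16, DESeq2 −0.16, no filter −0.27, without ribosomal and mitochondrial genes −0.014, without second copies −0.0078), Pkp3 (−0.35, −0.16, −0.17, −0.27 and −0.0087 under the first 5 of these), Jup (all deposited 0.25, only the 2 groups 0.10) and Perp (only the 2 groups 0.052). For EoE against ESCC they were Dsg2 (RLE −0.064, DESeq2 −0.026, no filter −0.070) and Jup (−0.085, −0.077 and −0.11). Within ESCC classes they were basal Pkp1 at resolution 0.5 (−0.0058), suprabasal Dsg3 with 30 neighbors (0.034) and above-strip Dsc3 (0.055 with RLE, 0.051 with DESeq2).

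Leaving out 1 mouse gave 1146–2018 called genes and 1–2 lower desmosome genes for EoE. For ESCC it gave 1365–2194 called genes, with 0–1 desmosome genes higher and 2–4 lower. For EoE against ESCC it gave 1583–2519 genes, with 0–1 higher and 0–2 lower, and for age 0–8 genes. Within ESCC classes it gave 1–3 desmosome genes higher in basal cells, where 768–1407 genes were called in either direction. It gave 0–1 lower in suprabasal cells (274–430 genes called) and 1–2 higher in above-strip cells (717–1058). The Dsg3 share difference in EoE ran from −10.6 to 11.6 points, the latter without mouse 12. Signs of uncalled genes changed in the ranges −0.22 to 0.25 (Dsp), −0.58 to 0.38 (Pkp3), −0.40 to 0.065 (Jup) and −0.40 to 0.035 (Perp) for EoE, −0.038 to 0.25 (Dsg3) for ESCC, −0.97 to 0.75 (Dsg2) and −0.092 to 0.37 (Jup) for EoE against ESCC, −0.13 to 0.018 (Dsc3), −0.066 to 0.17 (Pkp1) and −0.053 to 0.058 (Jup) in basal, −0.50 to 0.047 (Dsc2) and −0.25 to 0.089 (Pkp1) in suprabasal, and −0.12 to 0.10 (Dsc3) and −0.18 to 0.081 (Pkp1) in above-strip ESCC cells. With 770 desmosome UMIs in EoE, depth limited every EoE value, and a resolution of 0.5 left no suprabasal class.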
